A study of Mus musculus with 9 samples.

Results

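The 2 arrays of the earliest stage of mouse megakaryocyte maturation, called MKP in the labels, were set against all 7 arrays of the later stages MK3, MK4 and MK6 taken as 1 group. All 9 arrays of the series entered the comparison. The genes described are those for which every later array lay on the same side of both MKP arrays. Of 12393 genes on the array with a single gene symbol, 875 (7.06%) lay above and 923 (7.45%) below in this way, 1798 in all, and 1564 of these also passed a filter on low signal. Counted on single probe sets, the sets of short oligonucleotides that each report a transcript, 1308 of 20380 lay above (6.42%) and 1624 below (7.97%).

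Primary mouse marrow or fetal liver cells had been grown with thrombopoietin, and RNA of cells sorted on CD41 and forward scatter was hybridised to Affymetrix MOE430A arrays. The stages were MKP (2 arrays), MK3 (2), MK4 (2) and MK6 (3). Cultures were harvested on days 3, 4 and 6, and the stage names carry the same numbers, but the labels tie no day to an array and give none for MKP. The labels name no genotype, strain, age or added agent other than thrombopoietin, and do not say which tissue an array came from. Nothing in them shows that arrays of 1 stage come from separate cultures. The p-values here reflect sample-to-sample spread, which within a stage may be purely technical. With the later arrays taken as 1 group, that spread also holds the differences among MK3, MK4 and MK6. The MK6 arrays are numbered here in order of deposit, so MK6 replicates 2 and 3 are those whose titles end in replicate1 and replicate2.

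Megakaryocytes arise in the marrow and fetal liver from progenitors shared with other myeloid cells. They leave the ordinary cell cycle for rounds of DNA replication without division, fill their cytoplasm with granules and receptors, and shed it as platelets. CD41, the product of Itga2b, marks the lineage but is also carried by some early progenitors.

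Signals were scaled to a common level and taken as log2 of the scaled signal plus a pseudocount of 15.2, so a difference of 1 is a doubling for bright genes and understates the change of dim ones. A gene was represented by its brightest probe set and tested if its scaled signal was above 46.7 on at least 2 arrays, which left 9382 genes. Of these, 694 (7.4%) had all 7 later arrays above both MKP arrays and 870 (9.27%) had all 7 below. A further 181 genes above and 53 below did not pass the filter. Of the genes that passed it, 161 above did so through later arrays alone, with both MKP arrays under it, and 13 below through MKP arrays alone. Such genes had to differ to be tested, so a count or p that includes them is no support for a difference. The 694 genes lay higher by a median of 0.74, with 186 of them at 1 or more, and the 870 differed by a median of -0.66, with 155 lower by 1 or more. Over all genes tested the median difference was 0.051. The edge of the rule is set by the gap between the nearest MKP and later arrays, not by the mean difference. By this gap Gcnt1 was the last gene inside it above and Paf1 the last below, while Tab1 and C9orf72 were the first outside. The mean differences of these genes, in that order, were 0.55, -0.31, 0.21 and 0.77. The split depends on the scaling, since the genes above were 44.4% of those on 1 side with it and 58.8% on the unscaled signals (429 above, 300 below).

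No gene reached an adjusted p below 0.05 in limma with the 7 later arrays as 1 group (0% called, in either direction). The lowest adjusted p was 0.0608, and 1212 genes had an unadjusted p below 0.05, 627 higher and 585 lower. The later arrays spread more than the MKP arrays, with a median SD over genes of 0.39 (n = 7) against 0.16 (n = 2). The spread of the later arrays includes differences among their stages, which this test counts as error. Another limma fit had a mean for each stage and set the average of the 3 later stages against MKP. It called 22 genes higher and 6 lower. All but Srxn1 of these 28 were on 1 side of both MKP arrays, against 16.7% of all genes tested. The calls and the rule use the same values, so neither is support for the other. Of the 28, 3 (Mmp12, Mtmr10 and Akr1c13) had passed the filter through 1 group alone. The error in the fit with a mean for each stage is the spread of 2 or 3 arrays within a stage. That spread may be purely technical, and differences among the later stages do not count in it. Without MK3 replicate 1 the pooled test called 39 higher and 4 lower, without MK4 replicate 1 it called 26 and 2, without MK4 replicate 2 1 and 0, and without MK6 replicate 1 0 and 1. Leaving out MKP replicate 1 gave 1401 genes above and 1322 below, and leaving out MKP replicate 2 gave 1350 and 1421, as the rule then asks for less. Because no gene was called with all arrays, the genes named by size were chosen after their values were seen. Differences carry their standard error in the pooled fit, and adjusted p-values without another description are limma's for that fit.

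**Figure D1:**
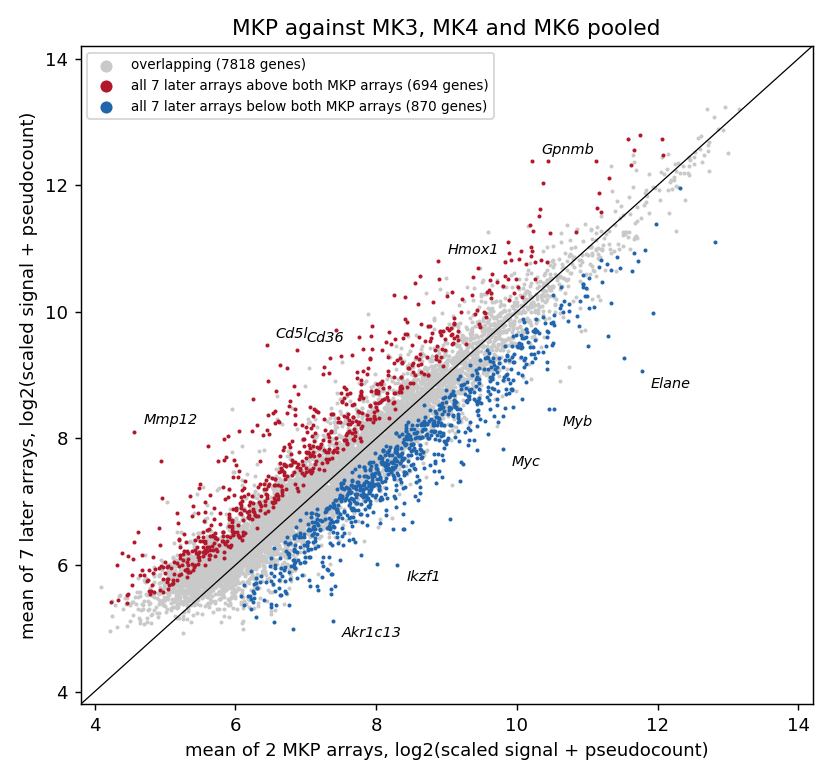
Mean log2 signal of the 7 later arrays (vertical axis) against the mean of the 2 MKP arrays (horizontal axis) for each of the 9382 genes tested, 1 point per gene, with the line of equality. The 694 genes with all later arrays above both MKP arrays are red, the 870 with all later arrays below are blue, and overlapping genes are grey.

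The later arrays differed among themselves in RNA quality and in the level of the sorted marker. Trimmed means as deposited ran from 102 to 221 before scaling. For beta-actin the control probes of the 3' end over those of the 5' end gave a ratio, higher in degraded RNA, of 0.957 and 0.976 on the MKP arrays and 0.997 to 3.21 on the later ones, highest on MK6 replicate 3. Over the genes tested, as a description since genes are no replicates, r (Pearson) was 0.968 between the MKP arrays, 0.745 to 0.942 between an MKP and a later array and 0.788 to 0.955 among later arrays. With MK6 replicates 1 and 3, which had the lowest trimmed means and the highest actin ratios, left out, 777 genes lay above and 1153 below, but with fewer arrays the rule asks for less. Itga2b was at scaled signals of 1301 and 979 on the MKP arrays and at 977 on MK3 replicate 1, while the other 6 later arrays lay at 2531 to 3678. The groups therefore overlapped for the gene of the sorted marker (1.20 ± 0.41, adjusted p = 0.284). Without MK3 replicate 1 Itga2b was called, at 1.44 (adjusted p = 0.0274).

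Leading the genes above were several best known from macrophages. Cd5l, a secreted scavenger protein of tissue macrophages, had the widest gap. Its scaled signals were 70.9 and 72.7 on the MKP arrays and ran from 391 on MK4 replicate 1 over a median of 766 to 1768 on MK4 replicate 2. The difference was 3.03 ± 0.46, adjusted p = 0.0608, and the nearest later array was 2.21 above the nearer MKP array. For Cd5l both the lowest and the highest later array were of MK4.

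Mmp12, a metalloelastase secreted by macrophages, had the largest mean difference. It was at 5.66 and 11.6 on the MKP arrays, below the pseudocount, and at 53 to 1418 on the later arrays with a median of 362, so it passed the filter through the later arrays alone and its difference of 3.54 ± 0.96 depends on the pseudocount. The MK6 arrays were its 3 highest. Mertk, a receptor kinase by which phagocytes take up dying cells, was at 93.8 and 69.1 and then at 236 to 685 with a median of 392 (2.16 ± 0.38, adjusted p = 0.0883). Gpnmb, a glycoprotein of lysosomes and macrophages, was at 1247 and 1104 and then at 2402 to 11262 with a median of 5455 (2.17 ± 0.48, adjusted p = 0.135). MK4 replicate 1 was the lowest later array for all 4 of these genes.

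Trem2, a lipid-sensing receptor of macrophages, was under the filter at 41.3 and 27.4 in MKP and then at 71.4 to 656 (2.26 ± 0.56), but its other probe set overlapped at 0.031. The mannose receptor gene Mrc1 (1.87 ± 0.55), the endosomal glycoprotein gene Cd68 (1.94 ± 0.48) and the scavenger receptor gene Msr1 (1.53 ± 0.47) also lay above on all 7 arrays. With a mean for each stage, limma called Cd5l (3.09), Mmp12 (3.29), Mertk (2.17), Gpnmb (2.08), Mrc1 (1.99) and the lipoprotein lipase gene Lpl (2.12) higher, with adjusted p of 0.0172 to 0.0483.

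Of 26 tested monocyte and macrophage markers, 8 lay above and 1 below on all 7 arrays, against 7.4% and 9.27% of all genes tested, with a median difference of 0.65. Mmp12, 1 of those above, had passed the filter through the later arrays alone. Of the 26 differences 21 were positive and 5 negative, and the marker Csf1r overlapped (-0.093 ± 0.58). Cd5l, Mertk, Trem2 and Lpl, described earlier, are not in the list. Averaged over the list, log2 signal was 8.27 on each MKP array and 8.09 to 9.94 on the later arrays, highest on MK3 replicate 1, the later array with the least Itga2b, and lowest on MK6 replicate 3. Without MK3 replicate 1 the median was 0.42, without MK4 replicate 2 it was 0.43, and without any MK6 array 1.0. Of 27 list genes on the array only Cd163 was below the filter on every array, and Ctss is also in the lysosome list. The marker below was the chemokine receptor Ccr2, which brings monocytes out of the marrow, at 499 and 527 on the MKP arrays and 11.8 to 304 afterwards (-2.31 ± 0.82, adjusted p = 0.295), with its other probe sets overlapping at -0.96 and -0.42. The part that cells of another type played in these values was not tested. In RNA from a pool of cells, fewer cells of a type and less RNA per cell cannot be told apart.

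**Figure D2:**
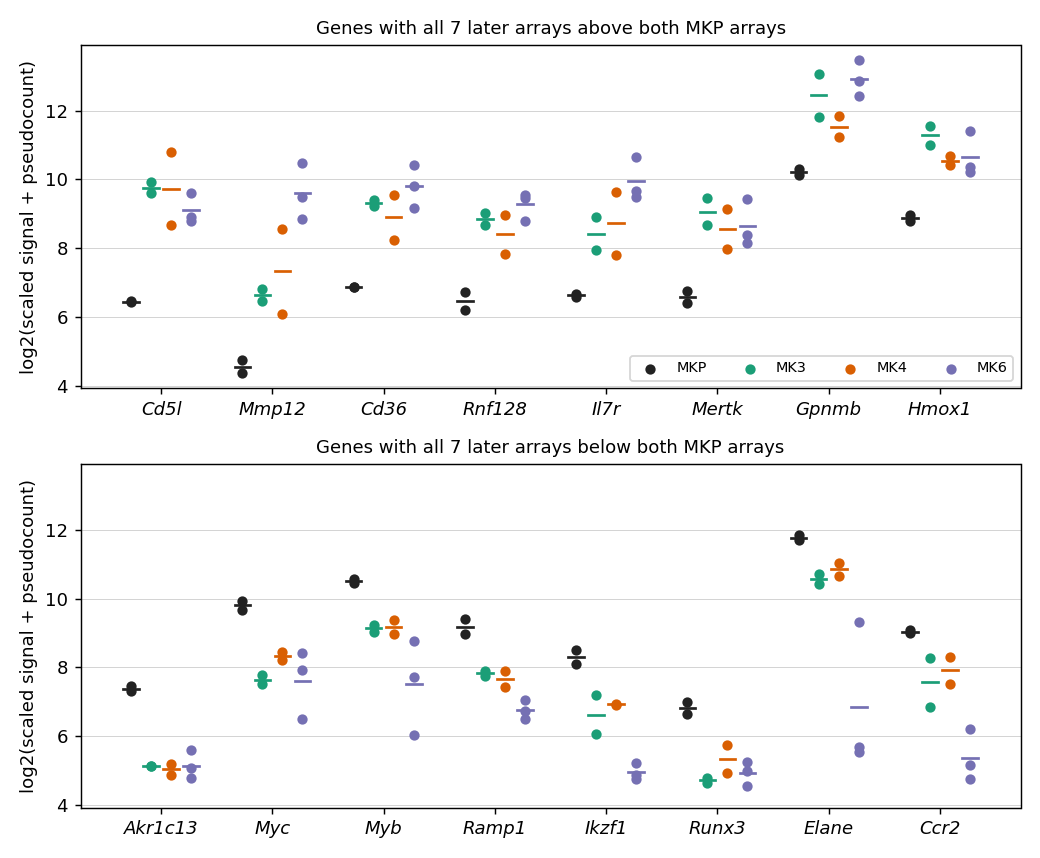
Log2 of scaled signal plus pseudocount (vertical axis) of 8 genes above (top) and 8 genes below (bottom) both MKP arrays, 1 point per array and a bar at each stage's mean, coloured by stage. Every later point lies clear of both MKP points because the genes were chosen so, and the MK6 points of Elane and Ccr2 lie below those of MK3 and MK4.

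Other leading genes above encode proteins of lipid handling, signalling and protein turnover. Cd36, a receptor for fatty acids and thrombospondin on platelets and macrophages, was at 102 on both MKP arrays and at 288 to 1366 later with a median of 657 (2.52 ± 0.41, adjusted p = 0.0675). Rnf128, a membrane-bound ubiquitin ligase, was at 58.1 and 91.4 and then at 214 to 739 with a median of 484 (2.43 ± 0.37, adjusted p = 0.0608). Il7r, a cytokine receptor chain of lymphocytes, was at 81.5 and 87.2 and then at 208 to 1603 with a median of 709 (2.52 ± 0.60, adjusted p = 0.158). For all 3 genes MK4 replicate 1 was the lowest later array and MK6 replicate 1 the highest, and their other probe sets lay above on every later array too, at 1.86 and 1.0 for Cd36, 2.0 for Rnf128 and 2.07 for Il7r.

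Among the remaining large differences were the stress-induced kinase gene Sgk1 (2.38 ± 0.57), the ubiquitin ligase subunit gene Fbxo32 (2.71 ± 0.98), the lipid phosphatase gene Plpp3 (2.14 ± 0.60), C77080 (2.14 ± 0.47) and Gpr137b (2.29 ± 0.42), which encodes a lysosomal membrane protein. Gpr137b-ps (2.37 ± 0.50) is a relative of Gpr137b by name, and signals of the pair may not be independent. Fbxo32 was close to the pseudocount on both MKP arrays and under the filter, at 17 and 14, and at 791, 355 and 676 on MK6. Hmox1, the haem-degrading oxygenase, was at 431 and 482 and then at 1182 to 3001 with a median of 1610.0 (1.92 ± 0.34, adjusted p = 0.0883). Its highest array was MK3 replicate 1 and its lowest later array MK6 replicate 2.

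With a mean for each stage Cd36 (2.46), Rnf128 (2.37), Gpr137b (2.21) and Hmox1 (1.95) were called higher as well, with adjusted p of 0.0172 to 0.0344 in limma. Lmna (1.65), which makes lamins A and C of the nuclear envelope, was at 99.4 and 83.6 in MKP and at 193 to 483 on the later arrays. Mdm2 (1.31), the ubiquitin ligase that restrains p53, was at 298 and 369 and then at 610.2 to 1524. The others called higher were the protease inhibitor gene Serpinb6a (1.88), the myelin protein gene Pmp22 (1.80), the protease subunit gene Capn2 (1.61), the metalloprotease gene Adamts1 (1.57), Mtmr10 (1.89, with both MKP arrays under the filter at 9.41 and 9.44), Tmem140 (1.86), the neuropeptide gene Npy (1.65), Creg1 (1.15), Srxn1 (1.89) and Blvrb (1.48). These 12 genes had adjusted p of 0.0172 to 0.0461 in limma.

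Lysosomal genes had the largest share above of the 29 lists. Of 28 tested members 17 lay above on all 7 arrays and 0 below, against 7.4% above among all genes tested, and the median difference was 0.63. Ctsl, the protease cathepsin L, was at 1362 and 1396 on the MKP arrays and at 2298 to 12863 later with a median of 5429 (1.93 ± 0.50, adjusted p = 0.179). Ctsd, cathepsin D, was at 3717 and 3128 and then at 5108 to 13302 with a median of 5943 (1.05 ± 0.35, adjusted p = 0.276). For both, MK6 replicate 1 was the highest array.

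The proteases Ctss (1.66 ± 0.38) and Ctsb (1.15 ± 0.33), the lipase Lipa (1.25 ± 0.31), the hexosaminidase chain Hexa (1.04 ± 0.25) and the membrane protein Lamp1 (0.50 ± 0.31) were above too. So were Atp6v1a (0.53 ± 0.22), Atp6v1h (0.53 ± 0.25) and Atp6v0d1 (0.39 ± 0.22), subunits of the proton pump that acidifies lysosomes. The list's mean log2 signal was 9.69 and 9.64 in MKP and 9.86 to 10.87 later, without overlap, and as with the macrophage markers it was highest on MK3 replicate 1. Whether the macrophage markers have a part in the lysosomal values was not tested.

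**Figure D3:**
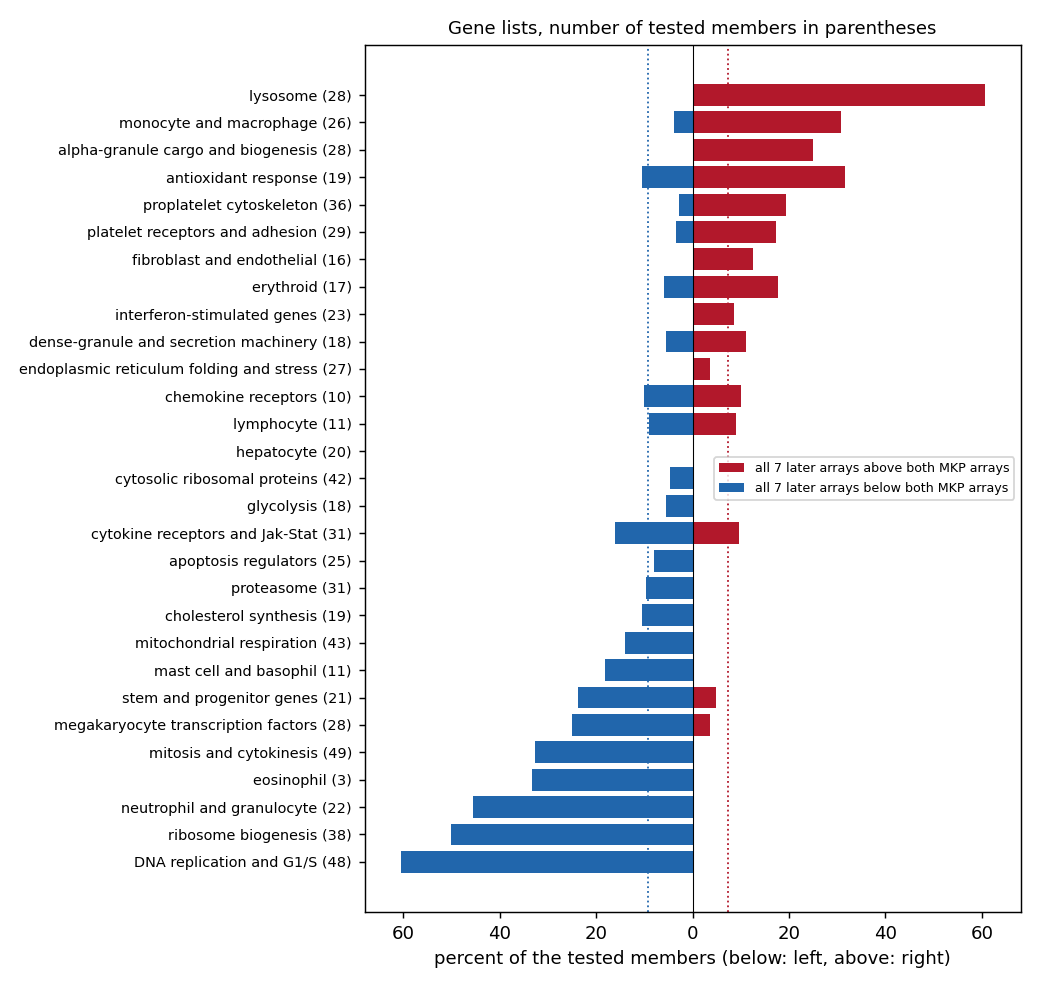
For each of 29 gene lists, the percentage of tested members with all 7 later arrays above both MKP arrays (red, right) and below both (blue, left), with dotted lines at 7.4% and 9.27%, the shares among all 9382 genes tested. Lysosome reaches farthest to the right (17 of 28) and DNA replication and G1/S farthest to the left (29 of 48), and no hepatocyte marker is on either side.

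Genes of the platelet lineage lay above in smaller numbers. Over 29 receptor and adhesion genes the median difference was 0.68, with 25 positive differences. Of the 29, 5 lay above and 1 below on all later arrays, against 7.4% and 9.27% of all genes tested. Besides Cd36 these were Cd84 (1.28 ± 0.34), an adhesion receptor of the SLAM family, Gp5 (1.03 ± 0.36), a subunit of the von Willebrand factor receptor, the laminin-binding integrin chain Itga6 (0.91 ± 0.25) and the tetraspanin Cd9 (0.90 ± 0.23). Gp5 was at 370.4 and 461 on the MKP arrays and at 513 to 1609 later with a median of 881, and MK3 held both its lowest and its highest later array. Icam2, an adhesion molecule, lay below (-1.37 ± 0.49). Itgb3, the partner of CD41, was at 262 and 269.6 in MKP and anywhere from 15 to 803 afterwards (-0.60 ± 0.92, adjusted p = 0.815), on both sides of the MKP arrays.

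Alpha granules store the adhesive proteins and growth factors that platelets release. Of 28 alpha-granule genes 7 lay above and 0 below, against 7.4% and 9.27% of all genes tested, with a median of 0.63. Ecm1, an extracellular matrix protein, was at 149.6 and 185 and then at 352 to 1252 with a median of 556 (1.80 ± 0.39, adjusted p = 0.129). The chemokine Cxcl5 (1.49 ± 0.38), under the filter at 10.7 and 9.82 in MKP and then at 20.2 to 95.2, the matrix protein Sparc (1.37 ± 0.40), the secreted ligand Gas6 (1.18 ± 0.45), clusterin Clu (1.17 ± 0.31) and clotting factor F5 (1.14 ± 0.44) lay above with it. Pf4, the platelet chemokine, did so by a gap of only 0.014, since MK3 replicate 1 at 4356 was close to the MKP arrays at 4314 and 4183, while MK6 replicate 1 reached 11328 (0.67 ± 0.33, adjusted p = 0.408). Ctla2a, a cysteine protease inhibitor, overlapped through MK3 replicate 1 at 554, against 623 and 909 in MKP and 1932 to 5562 on the other 6 later arrays.

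Dense granules hold serotonin, nucleotides and calcium, and their genes showed no common direction. Of 18 tested 2 lay above and 1 below, against 7.4% and 9.27% of all genes tested, with a median of 0.033. Rab27b, a small GTPase of granule secretion, was at 322 and 314, then at 333 on MK3 replicate 1 and 679 to 1197 on the other 6 later arrays (1.20 ± 0.36, adjusted p = 0.234). Without MK3 replicate 1 it was called, at 1.39 (adjusted p = 0.0353). Of 36 proplatelet cytoskeleton genes 7 lay above and 1 below, against the same 7.4% and 9.27%, with a median of 0.21. The beta tubulin gene Tubb2a led them, at 69.3 and 90.8 and then 167 to 511 (1.68 ± 0.32, adjusted p = 0.117), with gelsolin Gsn (0.99 ± 0.31) and tropomyosin Tpm4 (0.95 ± 0.33). Tubb2b (0.75 ± 0.30), under the filter in MKP, is a near-identical copy of Tubb2a and may share its signal. Coro1a, an actin regulator of leukocytes, lay below (-0.74 ± 0.51).

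Antioxidant genes had 6 of 19 members above and 2 below, against 7.4% and 9.27% of all genes tested. Their median was 0.76, and it came to 0.36 without the MK6 arrays. After Hmox1 came Blvrb, a biliverdin reductase, at 281 and 156 and then at 391 to 1207 with the 3 MK6 arrays highest (1.60 ± 0.44, adjusted p = 0.197). Catalase Cat (1.35 ± 0.41) and Gclm (1.23 ± 0.41), which takes part in glutathione synthesis, were above, while glutathione reductase Gsr (-0.82 ± 0.33) was below. Srxn1, which repairs oxidised peroxiredoxins, overlapped because MK3 replicate 1 at 221 lay between the MKP arrays at 193 and 253, whereas the MK6 arrays lay at 1799.6 to 2370.3 (2.07 ± 0.70, adjusted p = 0.28). Its other probe sets overlapped at -0.17, 1.33 and 0.73. Atf3, a stress-responsive transcription factor, was at 105 and 94.1 and then at 198 to 947 (1.99 ± 0.43, adjusted p = 0.129). Of 27 endoplasmic reticulum folding and stress genes it alone was on 1 side, against 16.7% of all genes tested.

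Myc, Myb, Kit and Cd34, named here from the list of stem and progenitor genes, lay below both MKP arrays. Myc, a driver of growth and ribosome production, was at 804 and 959 on the MKP arrays and at 74.6 to 334 later with a median of 228 (-1.98 ± 0.42, adjusted p = 0.129). No later array came within 1.23 log2 units of MKP. Myb, a transcription factor of haematopoietic progenitors, was at 1396 and 1515 and then at 50.4 to 657 with a median of 489 (-2.06 ± 0.69, adjusted p = 0.28). MK3 and MK4 lay together at 489 to 657 and the MK6 arrays at 50.4, 424 and 196. Its other probe sets, at -2.34 and -1.65, lay below on every later array too.

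The stem cell factor receptor Kit was at 249 and 338 and then at 45.2 to 192 (-1.17 ± 0.37, adjusted p = 0.257), with -2.49 on its other probe set. Cd34, a surface sialomucin of progenitors, was at 321 and 448 and then at 78.8 to 212 (-1.39 ± 0.32, adjusted p = 0.135). Of 21 stem and progenitor genes 5 lay below and 1, the protein C receptor gene Procr (0.65 ± 0.30, under the filter in MKP), above, against 9.27% below and 7.4% above among all genes tested, with a median of -0.39. Of 28 megakaryocyte transcription factors 7 lay below and 1, the repressor gene Bach1 (0.57 ± 0.21), above, against the same shares, with a median of -0.017. Besides Myb, those below were Ldb1 (-0.95 ± 0.31), a cofactor of GATA factors, Runx1 (-0.68 ± 0.26, with -1.0 and -0.89 on probe sets below and -0.84 and 0.39 on overlapping ones), the erythroid factor Klf1 (-0.59 ± 0.26), the repressor Etv6 (-0.54 ± 0.24), Gata2 (-0.51 ± 0.21) and Hhex (-0.49 ± 0.19). Gata1 (0.61 ± 0.33, adjusted p = 0.453) and Nfe2 (0.027 ± 0.37, adjusted p = 0.982), central factors of megakaryocyte maturation, overlapped, and Nfe2 was -0.027 with arrays scaled to a common median.

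The widest gap below was that of Akr1c13, an aldo-keto reductase with closely similar relatives, at 144 and 161 in MKP and 12.3 to 33.1 later (-2.27 ± 0.31). Every later array was under the filter, which Akr1c13 passed through the MKP arrays alone, so its difference depends on the pseudocount and its call below is no support for one. The lymphoid transcription factor Ikzf1 was at 350.3 and 257 and then at 12.1 to 132 (-2.30 ± 0.62, adjusted p = 0.187), and Runx3, a relative of Runx1, was at 112 and 85.1 and then under the filter throughout, at 8.27 to 38.9 (-1.83 ± 0.38). Ramp1, a partner of the calcitonin receptor family, was at 659.6 and 487 and then at 74.7 to 224 with its 3 MK6 arrays lowest (-1.86 ± 0.37, adjusted p = 0.129). The growth factor gene Fgf3 (-1.38 ± 0.29), the sialic acid-binding receptor gene Siglecf (-1.44 ± 0.40, with all later arrays under the filter), the kinase gene Pkmyt1 (-1.57 ± 0.48, but -0.034 on its other probe set), whose product holds back mitosis, and the ganglioside synthesis gene B4galnt1 (-1.82 ± 0.77, with an overlapping -0.42 on its other probe set) were also among the largest differences or widest gaps below. With a mean for each stage limma called Akr1c13 (-2.27), Ikzf1 (-2.13), Ramp1 (-1.77), the organic anion transporter gene Slco3a1 (-1.57), the differentiation inhibitor gene Id1 (-1.27) and the purine synthesis gene Gart (-1.19) lower, with adjusted p of 0.0172 to 0.0461.

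Several neutrophil genes, among them genes of azurophil granules, lay below by large amounts but with wide spread. Elane, neutrophil elastase, was at 3666 and 3315 in MKP and at 31.8 to 2104 later with a median of 1369 (-2.71 ± 1.37, adjusted p = 0.423). MK3 and MK4 lay together at 1369 to 2104, and the MK6 arrays at 31.8, 620.3 and 36.6. Ctsg (-2.25 ± 1.24), Prtn3 (-1.96 ± 1.0) and Mpo (-1.71 ± 1.14), which encode proteins of the same azurophil granules, and Gfi1 (-2.0 ± 0.79), a transcription factor of granulocyte development, likewise had all MK6 arrays below all MK3 and MK4 arrays. Hp, haptoglobin (-1.99 ± 1.02), came within 0.088 log2 units of the MKP arrays on MK3 replicate 1.

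Of 22 tested neutrophil markers 10 lay below and 0 above, against 9.27% and 7.4% of all genes, with a median of -1.42. The difference was negative for 21 of the 22. Ltf, Lcn2, Camp and Ngp, also in the list, were not among the 10. The list's mean log2 signal was 10.55 and 10.36 in MKP and 7.44 to 10.07 later, without overlap, and lowest on MK6 replicate 3, the array with the highest actin ratio. No marker on the array was below the filter throughout. The median was -0.75 without the MK6 arrays and -0.66 with the actin ratio as a covariate. The part of neutrophil precursors in the MKP samples was not tested.

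DNA replication genes had the largest share below of the 29 lists. Of 48 tested members 29 lay below on all 7 arrays and 0 above, against 9.27% and 7.4% of all genes tested. The median difference was -0.73, with 46 negative differences. Mcm3, a subunit of the replicative helicase, was at 807 and 863 and then at 98.6 to 559 (-1.47 ± 0.50, adjusted p = 0.284). Cdc6, which loads that helicase, was at 144 and 158 and then at 6.4 to 77.6 (-1.52 ± 0.45, adjusted p = 0.233). Both were lowest on MK6 replicate 1, and 3 of the 4 other probe sets of Mcm3 lay below on every later array, at -1.79, -1.78 and -1.52, while the remaining one overlapped at 0.19.

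Thymidine kinase Tk1 (-1.83 ± 0.94), the ribonucleotide reductase subunit Rrm1 (-1.45 ± 0.36), Uhrf1 (-1.41 ± 0.54), which helps to maintain DNA methylation, and the helicase subunit Mcm5 (-1.35 ± 0.61) lay below with them. The list's mean log2 signal was 8.62 and 8.52 in MKP and 6.87 to 8.16 later, lowest on MK6 replicate 1. Of 49 mitosis and cytokinesis genes 16 lay below and 0 above, against 9.27% and 7.4% of all genes tested. Their median was -0.51, and it ran from -0.63 to -0.26 over the alternatives. Among those below were Ect2 (-1.21 ± 0.50), which directs cleavage of the dividing cell, Stmn1 (-1.19 ± 0.35), a tubulin-binding protein with another probe set overlapping at -0.23, and the cyclin Ccna2 (-1.19 ± 0.54, with an overlapping -0.46 on its other probe set). The mitosis list's mean was 8.37 and 8.38 in MKP, 6.58 on MK6 replicate 1 and from 7.76 to 8.22 across the remaining 6 later arrays.

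Ribosome biogenesis genes had 19 of 38 members below and 0 above, against 9.27% and 7.4% of all genes tested. Their median was -0.56, with 37 negative differences. Rrp9, which acts in processing of the ribosomal RNA precursor, was at 187 and 117 and then at 15 to 89.8 (-1.73 ± 0.44, adjusted p = 0.168). Nolc1, a nucleolar phosphoprotein, was at 356 and 377 and then at 90.3 to 242 (-1.16 ± 0.33, adjusted p = 0.209), and its other probe sets lay below on every later array, at -1.58 and -1.15. Nop58 (-1.18 ± 0.46) and fibrillarin Fbl (-1.16 ± 0.29), parts of the particles that methylate ribosomal RNA, and the nucleolar chaperone Npm1 (-0.91 ± 0.35) were below as well. The list's mean was 8.53 and 8.43 in MKP and 7.42 to 8.19 later, without overlap.

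**Figure D4:**
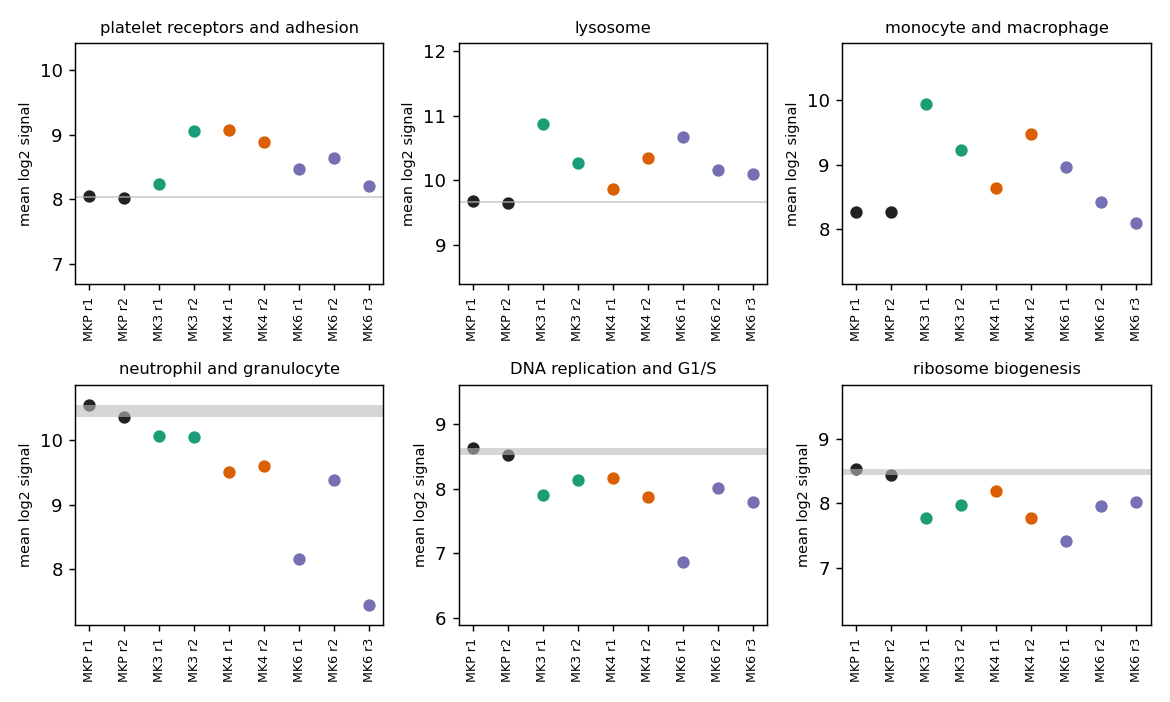
Mean log2 signal over the tested members of 6 gene lists (vertical axis, same span in each panel) on each of the 9 arrays, with the range of the 2 MKP arrays as a grey band. MK3 replicate 1 is highest for lysosome and for monocyte and macrophage markers, MK6 replicate 1 is lowest for DNA replication and G1/S, and the neutrophil markers lie below the band on all 7 later arrays.

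Promoter sequences were read as a further description of the genes on each side. E2F factors switch on replication genes at the start of S phase, and their sites were searched as TTTGGCGC and TTTCCCGC on both strands, in windows of 300 bases around gene starts from RefSeq (GRCm38.p6). Of 931 windows of the genes below, 6.23% held a match, against 1.30% of 767 windows of the genes above, 2.82% of 9783 windows of all genes tested and 1.56% of all 32851 windows. Among 51 windows of the DNA replication list 25.5% held one. The table held windows for 723 of the 870 genes below and 577 of the 694 above. The windows of Mcm3, Cdc6, Nop58 and Nolc1 are shown because these replication and ribosome biogenesis genes lay below and hold a match, which is in capitals.
Mcm3 (chr1:20820263-20820562, minus strand): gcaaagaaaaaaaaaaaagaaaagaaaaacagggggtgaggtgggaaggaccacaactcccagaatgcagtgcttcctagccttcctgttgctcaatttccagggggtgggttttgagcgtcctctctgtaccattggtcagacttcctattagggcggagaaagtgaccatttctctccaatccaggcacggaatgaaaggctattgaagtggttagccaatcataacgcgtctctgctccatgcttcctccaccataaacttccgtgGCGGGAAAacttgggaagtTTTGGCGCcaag
Cdc6 (chr11:98907901-98908200, plus strand): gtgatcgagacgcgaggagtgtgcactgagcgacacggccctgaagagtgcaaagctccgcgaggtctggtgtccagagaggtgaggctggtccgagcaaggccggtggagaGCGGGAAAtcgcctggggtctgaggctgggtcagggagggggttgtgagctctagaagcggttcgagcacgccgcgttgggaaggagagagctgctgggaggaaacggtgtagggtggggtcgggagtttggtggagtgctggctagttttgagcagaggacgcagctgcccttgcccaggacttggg
Nop58 (chr1:59684756-59685055, plus strand): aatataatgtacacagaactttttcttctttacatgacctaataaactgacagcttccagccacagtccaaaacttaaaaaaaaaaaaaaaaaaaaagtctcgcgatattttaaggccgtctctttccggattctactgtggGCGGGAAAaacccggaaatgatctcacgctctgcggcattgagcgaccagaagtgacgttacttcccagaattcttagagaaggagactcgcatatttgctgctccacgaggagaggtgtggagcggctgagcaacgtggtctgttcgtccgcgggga
Nolc1 (chr19:46075597-46075896, plus strand): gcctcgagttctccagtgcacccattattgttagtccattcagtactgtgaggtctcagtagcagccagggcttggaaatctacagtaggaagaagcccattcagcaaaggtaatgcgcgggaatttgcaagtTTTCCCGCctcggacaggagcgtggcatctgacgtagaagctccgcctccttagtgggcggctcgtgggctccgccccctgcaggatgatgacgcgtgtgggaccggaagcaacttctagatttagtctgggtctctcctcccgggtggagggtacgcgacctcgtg

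Mcm3 holds 2 matches, 1 of each word, and the other windows shown hold 1 each. Windows of Casp2 (below), Trem2 (above) and Ifit2 (overlapping) held an E2F match too, and those of Rrp9 and Ect2 (below) held none. A match is a description of the letters and shows no binding. The other words searched, on both strands, were AGATAAG for GATA factors, CCGGAAGT for ETS factors, CACGTG for E-box factors, CCAAT, and the consensus words of NF-E2 and Nrf1, and the Nrf1 word can overlap TTTGGCGC through its GCGC ends. The GATA word was in 1.40% of windows below and 1.56% above, against 2.03% of all genes tested, and the ETS word in 8.92% and 4.56% against 7.55%. CACGTG, which Myc and its partner bind, was in 11.5% below and 8.47% above, against 9.74%. The NF-E2 word was in 0 of 931 windows below (0%) and 2 of 767 above (0.261%), against 24 of 9783 (0.245%), too few to compare. For the Nrf1 word the shares were 2.79%, 1.43% and 1.90%, and for CCAAT 40.1%, 33.0% and 36.8%.

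The remaining lists are to be read against the same 7.4% above and 9.27% below. Of 43 mitochondrial respiration genes 6 lay below and 0 above (median -0.11), led by the isocitrate dehydrogenase chain Idh3g (-0.74 ± 0.26). Cytosolic ribosomal proteins had 2 of 42 below (median -0.12), the proteasome 3 of 31 (median 0.010), glycolysis 1 of 18 (median -0.072), cholesterol synthesis 2 of 19 (median -0.58, from -0.65 to -0.27 over the alternatives) and apoptosis regulators 2 of 25 (median 0.084), and none of these had a member above. Casp2, a caspase of the apoptosis list, was below (-0.89 ± 0.25). Fdps, of the cholesterol list, overlapped because MK4 replicate 1 at 1867 lay above both MKP arrays (-1.61 ± 0.80, and 0.012 on its other probe set).

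Of 31 cytokine receptor and Jak-Stat genes 5 lay below, including Kit, Csf3r (-1.41 ± 0.59), the receptor of granulocyte colony-stimulating factor, the signal transducer Stat5a (-0.79 ± 0.20) and its feedback inhibitor Socs2 (-0.75 ± 0.30). The 3 above included Il7r and the erythropoietin receptor gene Epor (0.63 ± 0.21). Of 10 chemokine receptor genes Ccr2 lay below and C3ar1 (1.29 ± 0.48), a complement receptor, above. Interferon-stimulated genes had 2 of 23 above and 0 below, with a median of 0.37. Those above were the antiviral gene Rsad2 (1.5 ± 0.66) and the GTPase gene Igtp (1.01 ± 0.25). The list's mean log2 signal was 7.92 and 7.91 in MKP, 9.18 and 9.06 in MK3 and 8.94 on MK4 replicate 2. On MK4 replicate 1 (7.81) and the MK6 arrays (7.45, 7.88 and 7.36) it lay below both MKP arrays. Ifit2 overlapped, at 73.1 and 117 in MKP and 15.1 to 895 later (0.97 ± 1.11).

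The counts of markers of further cell types are to be read against 7.4% of all genes tested above and 9.27% below. Of 20 hepatocyte markers 0 lay on either side, with a median of 0.39, from -0.037 to 1.04 over the alternatives, and list means of 6.37 and 6.12 in MKP and 5.67 to 7.75 later, highest on the MK3 arrays. Erythroid markers had 3 of 17 above and 1 below (median 0.24; 2 of those above were under the filter in MKP), fibroblast and endothelial markers 2 of 16 above and 0 below (median 0.17), mast cell and basophil markers 0 of 11 above and 2 below (median 0.017), lymphocyte markers 1 of 11 each way (median 0.22) and eosinophil markers 0 of 3 above and 1 below (median -0.20). The T and B cell genes Cd2, Cd3e, Cd3g, Cd4, Ebf1, Pax5, Rag1 and Rag2 were below the filter on every array. Nkg7, a granule protein of cytotoxic lymphocytes, was at 544 and 632 in MKP and 79.3 to 381 later (-1.64 ± 0.39, adjusted p = 0.16).

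How the genes on 1 side differed among the later stages was tested apart from the MKP level, with limma's moderated F test over MK3, MK4 and MK6. It called 108 of 9382 genes (1.15%), among them 9 of the 694 above and 11 of the 870 below. These shares, 1.30% and 1.26%, are near the 1.15% of all genes tested. The lists differed when their overlapping members were counted too. The F test called 8 of 26 monocyte and macrophage markers, 7 of 23 interferon-stimulated genes, 7 of 20 hepatocyte markers and 3 of 19 antioxidant genes. In the DNA replication, mitosis, ribosome biogenesis and lysosome lists it called 0. Fbxo32 (adjusted p = 0.0271) had stage means of 5.80, 7.14 and 9.21 on the log2 scale in MK3, MK4 and MK6, and the creatine transporter gene Slc6a8, Adamts1, Trp53inp1, Ephx1, Blvrb and the caveolin gene Cav1 also had their highest mean in MK6. Lpl (adjusted p = 0.0211) and Mrc1 (adjusted p = 0.0499) had theirs in MK3, at 11.73 and 9.58, and lower means in MK4 and MK6. All 11 genes below, Ikzf1, Ccr2, Ms4a3, Csf3r, Ltb, Slco3a1, Pfkl, Snd1, Mrps34, Ppp4c and Anp32a, had their lowest mean in MK6. Single arrays moved the count, which was 8 without MKP replicate 1, 12 without MKP replicate 2, 5 without MK3 replicate 1, 69 without MK3 replicate 2, 250 without MK6 replicate 2 and 2 without MK6 replicate 3.

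MK6 held the stage mean farthest from MKP for 55.7% of all genes tested, MK3 for 28.3% and MK4 for 16%. The median difference of the genes above was 0.64 in MK3, 0.58 in MK4 and 0.88 in MK6, and that of the genes below was -0.56, -0.50 and -0.79. Among the 694 genes above it was MK6 for 468 (67.4%), and among the 870 below for 594 (68.3%), while MK3 was farthest for 169 and 198 and MK4 for 57 and 78. MK6 replicates 1 and 3 had the lowest trimmed means and the highest actin ratios. The actin ratio was 1.49, 1.33 and 3.21 on MK6 replicates 1, 2 and 3, and at most 1.09 on the MKP, MK3 and MK4 arrays. The part of these array differences in the distance of MK6 was not tested. Single arrays weighed unequally here too. MK4 replicate 1 was the later array nearest to MKP for 222 genes above and 257 below, and MK6 replicate 1 the farthest for 358 and 443. A further 917 genes had 6 of 7 later arrays above both MKP arrays, and the array left over was MK3 replicate 1 for 232 and MK3 replicate 2 for 223 of them. Of 666 genes with 6 of 7 below, it was MK3 replicate 1 for 144 and MK6 replicate 3 for 138.

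**Figure D5:**
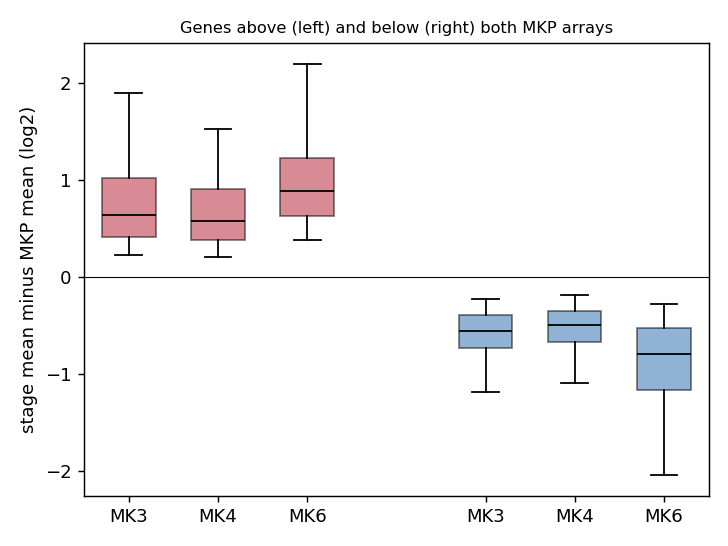
Stage mean minus MKP mean on the log2 scale (vertical axis) for MK3, MK4 and MK6, over the 694 genes above (left) and 870 genes below (right) both MKP arrays, with boxes from the lower to the upper quartile, a line at the median and whiskers at the 5th and 95th percentiles. MK6 lies farthest from MKP on both sides, with medians of 0.88 and -0.79, and MK4 closest, with 0.58 and -0.50.

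Probe sets of 1 gene did not always go together. Of the 694 genes above, 310 had several probe sets, and for 63 of these all lay above on every later array. The corresponding numbers for the 870 genes below were 431 and 103. For 3 genes above and 6 below another probe set lay on the opposite side. Among the genes named as above, other probe sets overlapped for Bach1 (0.11), Cat (0.71), Ctsb (0.86), F5 (1.14), Gpr137b (0.41), Gsn (0.68, -0.034 and 0.51), Lipa (0.77), Lmna (0.18), Msr1 (1.02), Rab27b (0.86), Rsad2 (0.71), Sparc (2.25), Trp53inp1 (-0.078) and Tubb2a (0.43). Among those named as below they did for Anp32a (-0.38 and 0.071), Coro1a (-0.71 and -0.46), Gata2 (-0.90), Gsr (-0.39), Idh3g (-0.42), Npm1 (-0.51), Pfkl (-0.58) and Snd1 (0.22 and 0.078), besides the genes whose other probe sets are given with their values.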

How the data were processed

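RNA of 9 samples of sorted mouse megakaryocytes was measured on single-colour arrays. The deposited values are linear signal intensities made by the authors with MAS5, per the submitters' processing notes, with version and settings not given in the sources used here. Of 22690 probe sets, 64 were controls, 20380 had 1 gene symbol, 691 several and 1555 none here, and 20351 were matched to RefSeq (GRCm38.p6) for current symbols. Arrays were scaled to a common trimmed mean (2% off each end) of 161. The pseudocount is the 20th and the filter the 40th percentile of all scaled values.

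All 9 arrays, grouped by title, entered limma 3.58.1 in R 4.3.3 (lmFit, eBayes with an intensity trend, two-sided, 7 residual degrees of freedom, Benjamini-Hochberg adjustment over all genes tested). A fit with a mean for each stage (5 degrees of freedom) gave the F test. The number of arrays limits the precision. The fits were tested on simulated data. The arrays simulated for the pooled fit held no differences among the later stages, so they do not show how it performs with such differences. The naming rule was the 14 largest called differences and 8 widest gaps each way, 3 members of each of 29 lists, and Itga2b, Itgb3, Pf4, Gata1, Nfe2, Myb and Kit. As none was called, the ranking was used without the call, and other names were chosen after their values were seen. The members and lists were chosen with earlier results of these data known. Alternatives were other pseudocounts, filters, scalings, probe set rules and variance models, a mean for each stage, stage as a random block, the actin ratio as a covariate, and arrays or stages left out. Leaving out MK6 replicates 1 and 3 together was chosen after seeing the data.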

Additional observations from a re-analysis of the deposited data

Results flagged for a closer look

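Of 70 values on the 7 later arrays (29 list means, 38 single genes and 3 array measures), 8 held 1 array far from the other 6, by a criterion that chance meets in about 1 of 20 groups. On MK6 replicate 1 the mean log2 signal was low for DNA replication and G1/S (6.87), for mitosis and cytokinesis (6.58) and for mitochondrial respiration (9.30), and the log2 signal of Kit was low too (5.92). On MK6 replicate 3 the mean of the cytosolic ribosomal proteins was high (11.79), as were the 3' to 5' ratios of the beta-actin (3.21) and Gapdh (3.27) controls. On MK3 replicate 1 the log2 signal of Itga2b was low (9.95). The 7 arrays span 3 stages, and the part of stage in these values was not tested.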

How the results depend on the processing

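The pooled test called 0 genes higher under every scaling, filter, pseudocount and variance model tried, and 1 lower with the pseudocount at the 40th percentile or no intensity trend and 2 lower with no filter or on every probe set. It called 22 higher and 6 lower with a mean for each stage, 20 and 2 without MK3, and 5 and 0 without MK4. Leaving out 1 array at a time gave 0 to 39 called higher and 0 to 4 lower, 689 to 1401 genes above, 923 to 1421 below, and 2 to 250 called among the later stages. Unscaled signals gave 429 above and 300 below, every probe set 1467 below, leaving out MK3 1267 above and leaving out MK6 1458 below. Genes called among the later stages numbered 55 with no filter, 48 with a stricter one, 68 after quantile normalization, 183 unscaled, 49 with no intensity trend, 342 without MK6 replicates 2 and 3 and 14 without MK6 replicates 1 and 3. The cause of these shifts was not tested.

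Over all alternatives the list medians ran from 0.56 to 0.75 for lysosome, 0.56 to 0.89 for platelet receptors, 0.38 to 0.85 for alpha granules, 0.36 to 1.04 for macrophage markers, -1.73 to -0.66 for neutrophil markers, -0.84 to -0.57 for DNA replication, -0.63 to -0.47 for ribosome biogenesis, 0.36 to 0.86 for antioxidant genes, -0.49 to -0.24 for stem and progenitor genes and 0.061 to 0.94 for interferon-stimulated genes. Of all 29 list medians, 13 changed sign in some alternative, and 12 others moved by over 1.5 times. Of the genes under the naming rule, 7 that overlapped and were never called changed sign in some alternative. Epx did so with the lower pseudocount (-0.014), quantile normalization (-0.051), a common median (-0.033), unscaled signals (-0.026) and without MK3 (-0.43) and with 1 array left out (-0.23 to 0.22), against 0.0083 otherwise. Nfe2 did so with a common median (-0.027), unscaled signals (-0.029) and without MK6 replicates 2 and 3 (-0.080), MK4 (-0.051), MK6 (-0.020) and with 1 array left out (-0.070 to 0.21), against 0.027 otherwise. Slc2a3 did so with the mean of probe sets (-0.11), against 0.55 otherwise. Pfn1 did so with the actin covariate (0.052), against -0.99 otherwise. Prg2 did so with the actin covariate (0.47) and without MK6 replicates 2 and 3 (0.36), MK6 (0.67), MK6 replicates 1 and 3 (0.19) and with 1 array left out (-0.56 to 0.055), against -0.20 otherwise. Itgb3 did so with the actin covariate (0.46) and without MK6 replicates 2 and 3 (0.20), MK6 (0.46), against -0.60 otherwise. Hdc did so without MK6 (0.016), against -1.33 otherwise. No paired analysis was possible because the labels do not tie an array of 1 stage to an array of another.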
